A study of Mus musculus with 34 samples.

Results

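The 10 genes described here encode mitotic kinases and spindle checkpoint proteins: Aurka, Aurkb, Birc5, Cdca8, Plk1, Bub1, Bub1b, Ttk, Mad2l1 and Pbk. They were chosen by name, and each was read through the brightest of its probe sets, by mean signal over 34 Affymetrix arrays of mouse spinal cord tissue. All 10 were among the 18193 genes named on the arrays and among the 11993 genes tested, which were above log2 4 on at least 4 arrays. A value under log2 4 is here called not well above background. Aurka, Aurkb, Plk1 and Ttk were above it on the 9 day 3 arrays and on no other array, so the filter kept them through day 3 alone.

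The arrays came from wild-type (WT) mice and from knockout (KO) mice, named in the series title as trkB.T1 null. Ntrk2 encodes trkB, a receptor of brain-derived neurotrophic factor, and trkB.T1 is its short form without the kinase domain. Cord was taken after sham surgery, in which the cord stayed intact, or 1, 3 or 7 days after spinal cord injury (SCI). The groups were WT sham (4 arrays), WT day 1 (5), WT day 3 (4), WT day 7 (4), KO sham (4), KO day 1 (4), KO day 3 (5) and KO day 7 (4). The labels name neither strain, sex, age, cord segment nor injury method, and whether the arrays stand for different animals is not given, so p-values measure the spread between these samples, which may be technical. The number of arrays limits the precision.

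Mitotic kinases carry a cell from the end of DNA replication through chromosome segregation. Aurora kinases and Plk1 build the spindle and correct faulty attachments of chromosomes to it, and the checkpoint proteins hold back the anaphase-promoting complex until every kinetochore is attached. Their transcripts are made mainly in G2 and M phase, and few cells of the intact adult cord divide, while microglia, macrophages, astrocytes, oligodendrocyte precursors, ependymal and vascular cells are known to divide after injury.

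All 10 genes had their highest group mean in KO cord at day 3 and their second highest in WT cord at day 3, and these groups overlapped for 10 of 10 genes. No gene's WT day 3 arrays overlapped with the next lower group. Against sham of the same genotype, all 10 genes passed as higher at day 3 in WT and in KO cord. For Aurka, Aurkb, Plk1 and Ttk the filter had fixed this direction, as it had their place at the top and every change into or out of day 3. The other 6, which pass the filter on the arrays outside day 3 alone, rose in both genotypes, where 29.5% of all tested genes rose in WT and 30.9% in KO cord. At day 1, 5 of 10 rose in WT cord (27.1% of all tested genes) and 0 of 10 in KO cord (23.7%). KO cord was lower than WT cord at day 1 for 5 genes, Birc5, Cdca8, Bub1, Mad2l1 and Pbk, against 0.667% of all tested genes. At day 7, 7 of 10 passed as above sham in WT cord (25.8%) and 8 of 10 in KO cord (23.5%), of which 1 in WT and 2 in KO had every value of both groups under log2 4. In whole tissue, fewer dividing cells and less of a transcript per cell cannot be told apart.

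**Figure D1:**
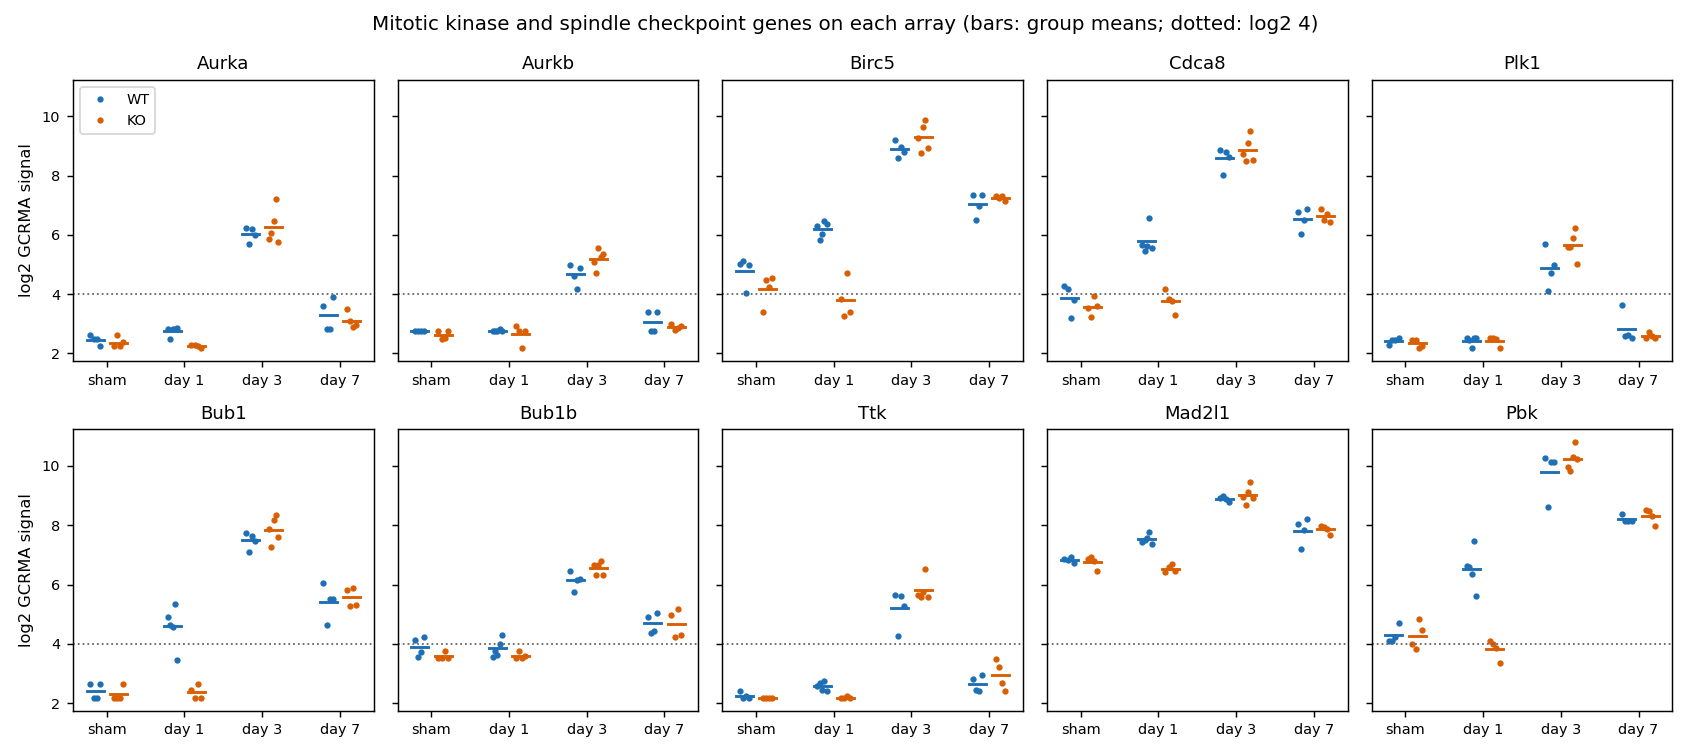
Log2 signal of the 10 genes on each array (points) by group, with group means as bars and log2 4, under which a value is not well above background, as a dotted line. WT is blue and KO orange. In each gene the day 3 arrays stand highest, and Birc5, Cdca8, Bub1, Mad2l1 and Pbk show WT day 1 arrays above all KO day 1 arrays, with 1 WT day 1 array of Bub1 under the line.

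The 8 Ntrk2 probe sets were read first as a check of the labels. Of them 2 were low in KO cord, and they were picked by these values. On these 2, values of 9.46 and 8.59 came from the library labelled KO sham replicate 2, where the other KO sham arrays reached at most 4.91 and 2.83 and the lowest WT arrays read 10.01 and 8.65. This library goes against its label and enters every comparison with KO sham cord below. WT day 3 replicate 2 was the lowest WT day 3 array for 8 of the 10 genes. Without that array and without this KO sham library, none of 180 results of a gene in a comparison changed its call. Signs of results that did not pass were not compared. Cord tissue markers were present: the mean of the oligodendrocyte markers was between 12.81 and 13.71 and that of the astrocyte markers between 11.55 and 12.49 over all arrays. Of 5 neuron markers, Snap25, Syt1, Nefl and Rbfox3 were above log2 4 on every array. The last, Chat, the enzyme of motor neuron acetylcholine synthesis, was under log2 4 on every array, as were 4 of 4 lymphocyte markers.

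Because the genes rose together at day 3, their promoter letters are shown first. RefSeq windows from 250 bases before to 50 bases after the gene start (GRCm38.p6) were used for 7 of the 10 genes (not Aurkb, Cdca8 and Pbk). Both strands were searched for TTTGAA and its variant with one letter changed, TTCGAA, which are forms of the cell cycle genes homology region known from promoters of G2 and M phase. The letters CCAAT, those of the site of the factor NF-Y, were searched too. Within the 50 bases after the start, either form of the homology region was found in 5 of the 7 windows and in 2.463% of all 32851 windows. Over the whole 300 bases it was found in 5 of 7 and in 19.226% of all windows, and in the 250 bases before the start in 1 of 7 and in 17.147%. CCAAT was found in 5 of 7 windows of 300 bases and in 37.408% of all windows. Birc5 and Mad2l1 held none of these letters. Matches of different motifs may overlap. The stretches around the match after the start are given here on the gene's strand, with the matched letters in capitals (in Ttk the motif lies on the other strand and reads TTCAAA).
Aurka, chr2:172370523-172370548, minus strand: aaggagaaccTTTGAAttgtaacggc
Plk1, chr7:122159455-122159480, plus strand: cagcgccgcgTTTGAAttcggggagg
Bub1, chr2:127831830-127831855, minus strand: gcgcggggaaTTCGAAtcgccggcgg
Bub1b, chr2:118598241-118598260, plus strand: agacgttaaaTTTGAAactt
Ttk, chr9:83834686-83834711, plus strand: gcggggaaatTTCAAAcgtgtttccg

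The last 70 bases before the start are shown for 3 of these genes with CCAAT (or ATTGG, the same letters on the other strand) in capitals, and for Birc5, which holds none. Each of the first 3 holds the letters at 2 places in this stretch.
Aurka, chr2:172370571-172370640, minus strand: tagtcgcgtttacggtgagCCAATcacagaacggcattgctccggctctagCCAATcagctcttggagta
Bub1, chr2:127831860-127831929, minus strand: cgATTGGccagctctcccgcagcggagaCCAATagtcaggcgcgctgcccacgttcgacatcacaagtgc
Ttk, chr9:83834619-83834688, plus strand: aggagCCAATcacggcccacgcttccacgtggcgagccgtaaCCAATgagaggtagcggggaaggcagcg
Birc5, chr11:117849167-117849236, plus strand: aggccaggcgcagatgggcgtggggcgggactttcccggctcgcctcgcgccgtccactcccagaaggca
A match is a description of the letters, and binding was not measured. Of the genes with these letters after the start, Bub1 rose in WT cord at day 1. Aurka, Plk1, Bub1b and Ttk, which also hold them, did not pass. No sham or day 1 value of Aurka, Plk1 and Ttk was well above background, so a change of these was not detectable there. Birc5 and Mad2l1, without these letters, rose. The part of these letters in the day 1 result was not tested.

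The chromosomal passenger complex joins the kinase Aurkb to its targeting subunits survivin (Birc5) and borealin (Cdca8), and it releases wrong attachments at the centromere before it moves to the midzone. The log2 signals of Birc5 in sham cord were 5.0, 5.12, 4.05 and 4.97 in WT and 3.39, 4.48, 4.23 and 4.55 in KO. At day 1 they were 6.28, 5.83, 6.04, 6.48 and 6.37 in WT and 3.84, 3.26, 4.70 and 3.39 in KO. All 5 WT day 1 arrays were above all 4 WT sham arrays and above all 4 KO day 1 arrays, while the KO day 1 arrays overlapped with KO sham. At day 3 they were 9.20, 8.60, 8.96 and 8.81 in WT and 9.27, 8.75, 9.65, 9.87 and 8.93 in KO. At day 7 they were 7.35, 6.50, 6.97 and 7.33 in WT and 7.32, 7.25, 7.32 and 7.13 in KO. The genotypes overlapped at both later times, and every injured array of days 3 and 7 was above every sham array. Birc5 was 2.67-fold higher at day 1 than in sham in WT cord, a log2 difference of 1.42 ± 0.28 (standard error, as after every ± on a difference; limma adjusted p = 9.09e-05). In KO cord the value at day 1 was -0.37 ± 0.29 (adjusted p = 0.299). The KO minus WT difference at day 1 was -2.40 ± 0.28 (adjusted p = 2.36e-06), or at least 4.07-fold lower in KO, where "at least" means that values under log2 4 in the lower group were set to 4. At day 3 Birc5 was 17.2-fold above sham in WT cord (4.11 ± 0.29) and at least 31.5-fold above it in KO cord (5.13 ± 0.28).

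Cdca8 read 4.26, 4.17, 3.19 and 3.81 in WT sham and 3.54, 3.24, 3.93 and 3.60 in KO sham cord. At day 1 it read 5.67, 5.46, 5.64, 6.56 and 5.56 in WT and 4.18, 3.83, 3.76 and 3.30 in KO. The WT day 1 arrays were again above all sham and all KO day 1 arrays, with replicate 4 the highest. Its day 3 signals were 8.87, 8.02, 8.81 and 8.64 in WT and 8.74, 8.51, 9.10, 9.49 and 8.52 in KO, and at day 7 6.76, 6.04, 6.50 and 6.86 in WT and 6.89, 6.49, 6.71 and 6.43 in KO. The genotypes overlapped at days 3 and 7. Cdca8 rose in WT cord at day 1 by 1.92 ± 0.25 (at least 3.18-fold, adjusted p = 2.60e-07), and its value in KO cord was 0.19 ± 0.26 (adjusted p = 0.56). The KO minus WT difference at day 1 was -2.01 ± 0.25 (adjusted p = 9.98e-06). By day 3 it was at least 22.3-fold above sham in WT and at least 29.3-fold above it in KO cord. Of the other Cdca8 probe sets, the dimmest was under log2 4 on every array outside day 3 and gave a KO minus WT value of -0.08 ± 0.25 at day 1, which did not pass in a limma fit over 24574 probe sets. In that fit the remaining one gave -1.98 ± 0.24 (adjusted p = 5.70e-06).

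Aurkb, the kinase of the complex, was under log2 4 on all 25 arrays outside day 3, at 2.17 to 3.40. At day 3 it read 4.97, 4.61, 4.19 and 4.89 in WT and 5.07, 4.72, 5.55, 5.25 and 5.35 in KO cord. The day 3 arrays stood above all others and the genotypes overlapped. Aurkb was at least 1.58-fold above sham in WT cord (1.91 ± 0.17) and at least 2.28-fold above it in KO cord (2.56 ± 0.16), a direction that the filter had fixed. Values under log2 4 have no sure order, so the size of a log2 difference against such a group is that of the deposited values only, here and for every gene below with an "at least" fold. A day 1 change of Aurkb that stayed under log2 4 was not detectable.

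Aurka works at the centrosomes and spindle poles and activates Plk1, which drives centrosome maturation and mitotic entry. Outside day 3 Aurka read 2.17 to 3.89 and Plk1 2.17 to 3.63, all under log2 4. Aurka read 6.22, 5.68, 6.20 and 5.99 in WT and 5.85, 6.04, 6.46, 7.22 and 5.75 in KO cord at day 3. Plk1 read 5.68, 4.10, 4.70 and 4.99 in WT and 5.60, 5.58, 5.89, 6.22 and 5.01 in KO cord at day 3. For both kinases KO replicate 4 was the highest array, WT replicate 2 was the lowest, and the genotypes overlapped. Aurka was at least 4.06-fold above sham in WT (3.57 ± 0.23) and at least 4.8-fold above it in KO cord (3.90 ± 0.22). Plk1 was at least 1.83-fold above sham in WT (2.44 ± 0.24) and at least 3.16-fold above it in KO cord (3.32 ± 0.23). The largest KO minus WT value at day 3 among the 10 genes was that of Plk1, at 0.79 ± 0.23. It did not pass (limma adjusted p = 0.293), but passed without WT day 3 replicate 1, at 1.06 (adjusted p = 0.0386).

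Of the checkpoint genes, Bub1 encodes a kinase that marks the centromere and recruits other checkpoint proteins to the kinetochore. Bub1 read 2.63, 2.17, 2.17 and 2.64 in WT sham and 2.19, 2.17, 2.17 and 2.63 in KO sham cord. At day 1 it read 4.92, 4.65, 4.56, 5.35 and 3.44 in WT and 2.42, 2.19, 2.64 and 2.17 in KO. All KO day 1 arrays were under log2 4, as was WT day 1 replicate 5, so these have no sure order, and the other 4 WT day 1 arrays were above it. Its day 3 signals were 7.73, 7.11, 7.65 and 7.46 in WT and 7.87, 7.25, 8.16, 8.35 and 7.59 in KO, and at day 7 6.04, 4.62, 5.51 and 5.52 in WT and 5.83, 5.28, 5.89 and 5.32 in KO. Bub1 thus ran from values under log2 4 in sham to clear signal at days 3 and 7 in both genotypes, which overlapped there. It rose at day 1 in WT cord by 2.18 ± 0.28 (at least 1.5-fold, adjusted p = 2.28e-07), and its KO minus WT difference was -2.23 ± 0.28 (adjusted p = 1.15e-05). With values under log2 4 set to 4, this difference was -0.70 and did not pass (adjusted p = 0.223). At day 3 Bub1 was at least 11.2-fold above sham in WT (5.08 ± 0.30) and at least 14.4-fold above it in KO cord (5.56 ± 0.28).

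Mad2l1, the checkpoint protein that binds and inactivates Cdc20, was the gene of the 10 with signal above log2 4 on every array. It read 6.85, 6.83, 6.94 and 6.74 in WT sham and 6.87, 6.92, 6.79 and 6.44 in KO sham cord. At day 1 it read 7.45, 7.52, 7.57, 7.78 and 7.36 in WT and 6.42, 6.59, 6.69 and 6.45 in KO. The WT day 1 arrays lay above all sham arrays of both genotypes, and the KO day 1 arrays lay within or just under the range of KO sham. Day 3 arrays gave 8.92, 8.99, 8.90 and 8.80 in WT and 8.96, 8.67, 9.13, 9.46 and 8.94 in KO, and at day 7 8.04, 7.21, 7.83 and 8.20 in WT and 7.98, 7.96, 7.86 and 7.67 in KO. The genotypes overlapped at both times. Mad2l1 rose 1.62-fold at day 1 in WT cord (0.70 ± 0.15, adjusted p = 0.000203), and its value in KO cord was -0.22 ± 0.15 (adjusted p = 0.24). It was 2.0-fold lower in KO than in WT cord at day 1 (-1.0 ± 0.15, adjusted p = 0.000123), so the genotype difference at this day also held for a gene with no value near background. At day 3 it was 4.18-fold above sham in WT and 4.84-fold above it in KO cord.

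Bub1b, a part of the complex that restrains Cdc20, read 3.53 to 4.3 in sham and day 1 cord of both genotypes, where 14 of 17 arrays were under log2 4. Its signals at day 3 were 6.46, 5.76, 6.17 and 6.18 in WT and 6.66, 6.30, 6.65, 6.78 and 6.33 in KO, and at day 7 4.90, 4.38, 4.42 and 5.04 in WT and 4.97, 4.24, 5.17 and 4.28 in KO. Every array of days 3 and 7 was above every sham array of its genotype. Bub1b rose at day 3, at least 4.16-fold over WT sham (2.24 ± 0.20) and at least 5.84-fold over KO sham (2.96 ± 0.19). At day 1 its value was -0.06 ± 0.19 in WT (95% interval -0.45 to 0.32) and 0.01 ± 0.20 in KO cord (-0.39 to 0.42), and neither passed.

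Ttk, the kinase that starts checkpoint signalling at unattached kinetochores, read 2.17 to 3.48 outside day 3. At day 3 it read 5.66, 4.25, 5.62 and 5.27 in WT and 5.63, 5.57, 5.75, 6.51 and 5.57 in KO cord. KO replicate 4 stood highest and WT replicate 2 lowest, and the genotypes overlapped. Ttk was at least 2.30-fold above sham in WT (2.96 ± 0.23) and at least 3.5-fold above it in KO cord (3.64 ± 0.22).

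Pbk encodes a kinase of dividing cells that is active in mitosis. It read 4.10, 4.10, 4.24 and 4.69 in WT sham and 3.99, 3.82, 4.84 and 4.46 in KO sham cord. At day 1 it read 6.62, 6.61, 6.35, 7.48 and 5.60 in WT and 4.09, 3.99, 3.85 and 3.34 in KO. The lowest WT day 1 array was above the highest sham and KO day 1 arrays. Day 3 arrays gave 10.26, 8.62, 10.12 and 10.12 in WT and 9.96, 9.82, 10.29, 10.80 and 10.25 in KO, and at day 7 8.39, 8.13, 8.13 and 8.16 in WT and 8.53, 8.48, 8.30 and 7.96 in KO. WT day 3 replicate 2 stood apart from the other WT day 3 arrays, and the genotypes overlapped at days 3 and 7. Pbk rose 4.75-fold at day 1 in WT cord (2.25 ± 0.30, adjusted p = 4.40e-07), while its value in KO cord was -0.46 ± 0.32 (adjusted p = 0.228). It was at least 5.70-fold lower in KO than in WT cord at day 1 (-2.72 ± 0.30, adjusted p = 1.49e-06). By day 3 it was 45.2-fold above sham in WT (5.50 ± 0.32) and above KO sham at least 59.7-fold (5.95 ± 0.30).

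**Figure D2:**
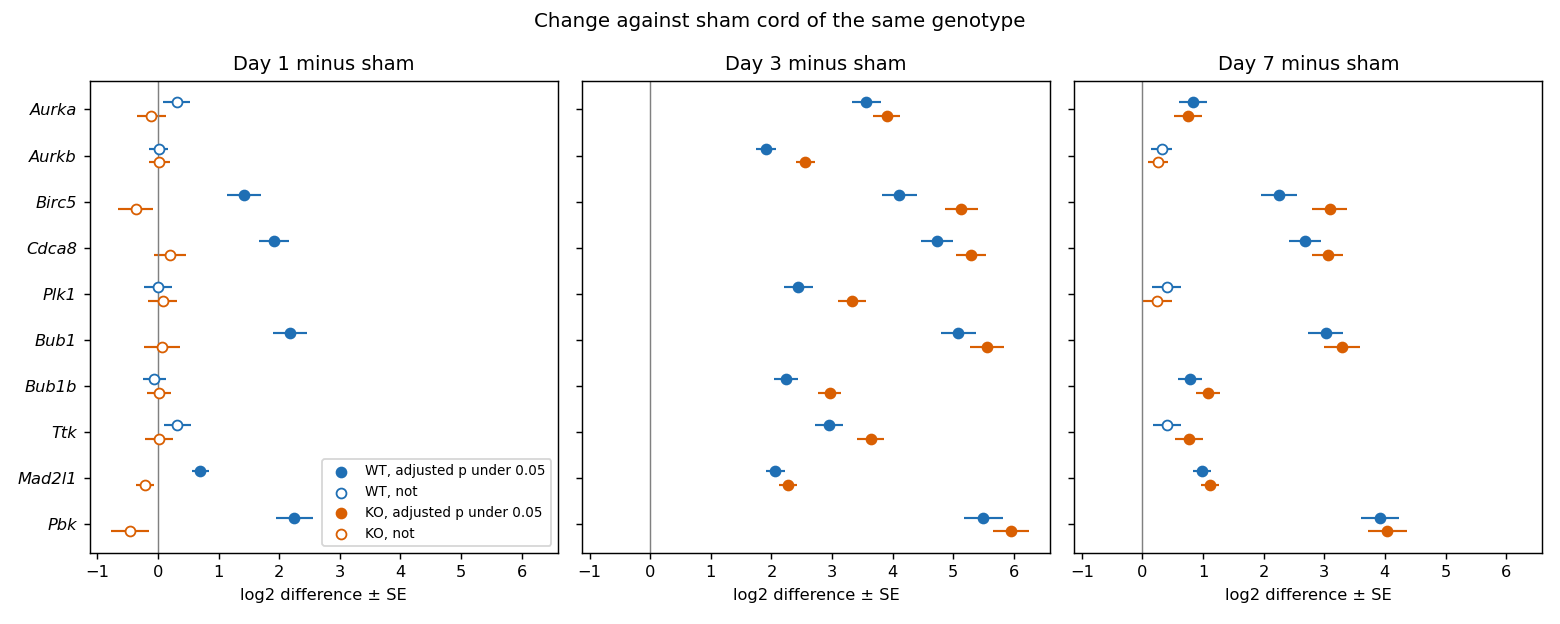
Log2 difference (± standard error) of each gene between injured and sham cord of the same genotype at days 1, 3 and 7. Filled points passed at adjusted p under 0.05. At day 1, 5 WT points and no KO point are filled, and at day 3 all points are.

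At day 1 the median log2 difference of the 10 genes from sham was 0.51 in WT cord and 0.01 in KO cord, and the medians of all tested genes were -0.05 in both. In KO cord none of the 10 passed in limma and none had an unadjusted p under 0.05. In KO cord 6 of the 10 were under log2 4 on every array of both groups. A change of these that stayed under log2 4 was not detectable. Bub1, 1 of the 6, was also under log2 4 on every WT sham array, and its rise in WT cord at day 1 passed. The test of the genotype difference in the day 1 response, the KO change minus the WT change, passed for 3 genes and for 0.142% of all tested genes, always toward a smaller response in KO. They were Pbk at -2.71 ± 0.44 (limma adjusted p = 0.00196), Bub1 at -2.12 ± 0.41 (adjusted p = 0.0144) and Cdca8 at -1.73 ± 0.36 (adjusted p = 0.0389). Birc5 at -1.78 ± 0.40 and Mad2l1 at -0.92 ± 0.21 did not pass (adjusted p = 0.0653 and 0.0746). The call of Cdca8 was lost in 14 of 34 fits that left out 1 array, with adjusted p up to 0.133. It was also lost with no filter (adjusted p = 0.0723), with another quantile normalisation (0.0611), with a fit of the groups compared alone (0.0702) and when all probe sets of a gene were averaged (-0.99, adjusted p = 0.287). In the fit over single probe sets it passed for none of the 3 Cdca8 probe sets, at -1.73 (adjusted p = 0.0567) for the one used, -1.26 (0.307) and 0.02 (0.999). The call of Bub1 was lost without KO sham replicate 4 (-2.0, adjusted p = 0.0559), with values under log2 4 set to 4 (-0.70, adjusted p = 0.772) and with averaged probe sets (-1.06, adjusted p = 0.147).

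Between the genotypes, none of the 10 genes passed in sham cord, where 0.0667% of all tested genes did and 1 of the 10, Birc5 at -0.62 ± 0.29, had an unadjusted p under 0.05. At day 1 the deposited values of the KO arrays lay wholly below those of the WT arrays for 7 of the 10 genes, and for 2.83% of all tested genes. The 7 were the 5 genes that passed, Aurka (-0.51 ± 0.22) and Ttk (-0.38 ± 0.22). Aurka and Ttk were under log2 4 on all these arrays, where values have no sure order. For Bub1 this holds for WT day 1 replicate 5 against the KO arrays. The median KO minus WT value of the 10 was -0.76 at day 1, against 0.02 over all tested genes. At day 3 none passed, where 0.0334% of all tested genes passed in either direction, and 4 had an unadjusted p under 0.05. All 10 values were positive at day 3, with a median of 0.40 against 0.00 over all tested genes, and with arrays that overlapped for every gene. At day 7 none passed, also against 0.0334%, and none had an unadjusted p under 0.05. The day 7 values ran from -0.25 to 0.28, and the widest 95% interval was that of Pbk, -0.53 to 0.76.

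**Figure D3:**
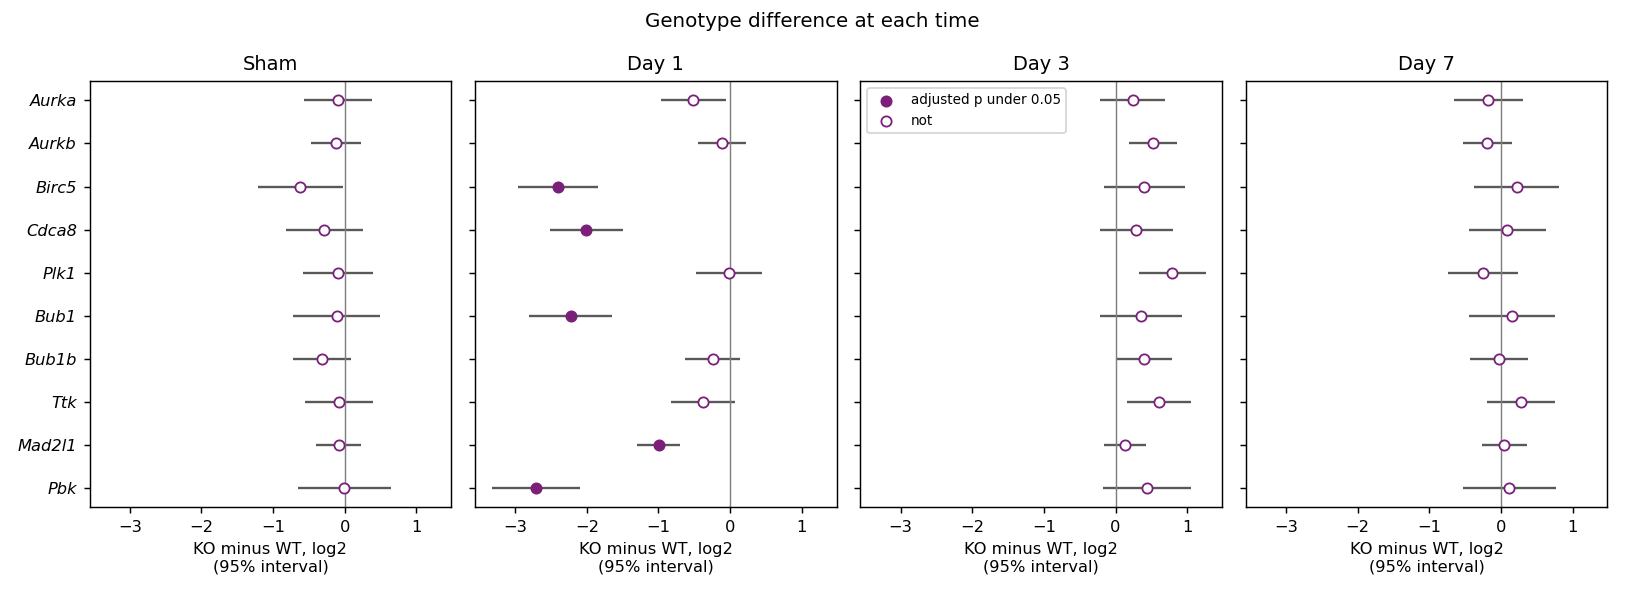
KO minus WT log2 difference of each gene with its 95% interval in sham cord and at days 1, 3 and 7, filled where adjusted p was under 0.05. The filled points are Birc5, Cdca8, Bub1, Mad2l1 and Pbk at day 1, between -2.72 and -1.0.

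From day 1 to day 3 the 6 genes whose direction the filter had not fixed rose in both genotypes, in WT cord against 15.4% of all tested genes and in KO cord against 23.5%. Over all 10, the rises of WT cord ran from 1.36 ± 0.15 for Mad2l1 to 3.26 ± 0.22 for Aurka. Those of KO cord ran from 2.49 ± 0.15 for Mad2l1 to 6.41 ± 0.30 for Pbk, at least 73.6-fold. Aurka was under log2 4 on every day 1 array, so the size of its rise is that of the deposited values only. The median rise of the 6 genes, also in deposited values, was 2.75 in WT and 5.30 in KO cord. The KO change exceeded the WT change for the 5 genes that differed at day 1, where 0.709% of all tested genes passed in that direction. These differences were 3.16 ± 0.42 for Pbk (limma adjusted p = 7.74e-05), 2.80 ± 0.39 for Birc5 (adjusted p = 0.000106), 2.59 ± 0.40 for Bub1 and 2.30 ± 0.35 for Cdca8 (adjusted p = 0.000357 for both) and 1.13 ± 0.21 for Mad2l1 (adjusted p = 0.00424). They share the day 1 arrays with the comparison between genotypes at that day. With values under log2 4 set to 4, that of Bub1 was 1.06 and did not pass (adjusted p = 0.135). The other 5 genes had values from 0.64 to 0.98 that did not pass. The KO response at day 3 against sham did not differ from that of WT for any of the 10 genes past the threshold in limma, nor for any tested gene (0%), though 5 of the 10 had an unadjusted p under 0.05 and all 10 values were positive, with a median of 0.61.

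From day 3 to day 7 the same 6 fell in both genotypes, where 12% of all tested genes fell in WT and 16.6% in KO cord. Over all 10, the falls in WT cord ran from -2.74 ± 0.23 for Aurka to -1.08 ± 0.15 for Mad2l1, and those in KO cord from -3.16 ± 0.22 for Aurka to -1.16 ± 0.15 for Mad2l1. Aurka was under log2 4 on every day 7 array, so the size of its falls is that of the deposited values only. The 6 were above log2 4 on every array of both days. Their median fall was -1.72 in WT and -1.97 in KO cord. At day 7 Pbk was still 15.1-fold above sham in WT (3.92 ± 0.32) and at least 15.9-fold above it in KO cord (4.04 ± 0.32), Birc5 4.77-fold and at least 7.67-fold, and Mad2l1 1.97-fold and 2.16-fold. Cdca8, Bub1 and Bub1b also passed in both genotypes. The day 7 calls of Aurka (0.83 ± 0.23 in WT and 0.75 ± 0.23 in KO) and of Ttk in KO cord (0.77 ± 0.23) rest on values under log2 4 in both groups, and each is 0 when those are set to 4. The genotype difference in the day 7 response passed for none of the 10, and for 0.00834% of all tested genes, and none of the 10 had an unadjusted p under 0.05.

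Among themselves, the 10 genes were compared by the root mean square difference of their 8 group means, each gene centred on its own mean. Cdca8 and Bub1 were the closest pair at 0.15 and Aurkb and Pbk the farthest at 1.74. The non-member genes nearest to the mean profile of the 10 were Shcbp1 (0.17), Kif20b (0.17), Melk (0.18), Cenpi (0.19), Ckap2l (0.23), Cdc20 (0.23), Spc24 (0.25) and Depdc1a (0.28), of the 11993 tested and over 8 groups. The nearest non-member was Tk1 for Aurka (0.09), Sgo2a for Aurkb (0.09), Ccna2 for Birc5 (0.15) and Cdca8 (0.18), Ska1 for Plk1 (0.15) and Ttk (0.22), Spc25 for Bub1 (0.21), Haspin for Bub1b (0.15), Incenp for Mad2l1 (0.12) and Top2a for Pbk (0.34). Genes with low signal in most groups have small differences of any kind, so a small distance of Aurkb or Plk1 says less than one of Birc5.

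Other spindle and kinetochore genes were described with a list of 45, of which 41 were tested (Mad1l1, Nsl1, Pmf1 and Ska3 were not). The shares of all tested genes that rose are given above, and those that fell were 32.5%, 37.4% and 33.3% in WT and 27.3%, 38.8% and 31% in KO cord at days 1, 3 and 7. At day 1, 13 of the 41 rose and 3 fell in WT cord, and 4 rose and 4 fell in KO cord. Of the 41, 13 passed the filter through the day 3 arrays alone and had to be higher there. Of the other 28, 18 rose and 3 fell in WT and 19 rose and 3 fell in KO cord at day 3. At day 7, counted over all 41 again, 22 rose and 3 fell in WT and 19 rose and 3 fell in KO cord. The median log2 difference at day 3 of the 28 kept without day 3 was 0.58 in WT and 0.94 in KO cord. It was 4.42 and 5.21 for the 6 mitotic genes kept without day 3, and -0.06 for all tested genes in both. Cenpa, the centromeric histone, was at least 20.2-fold above sham in WT and at least 28.5-fold above it in KO cord at day 3. Cdc20, the activator of the anaphase-promoting complex that Mad2l1 and Bub1b hold back, was 15.6-fold higher in WT (3.97 ± 0.20), and Cenpe, a kinetochore motor, at least 7.09-fold. At day 1 Trip13, a remodeller of Mad2 proteins, rose at least 4.28-fold in WT cord (2.31 ± 0.29), while Pttg1 (securin) fell by 0.54 on the log2 scale and Wee1, which restrains Cdk1, fell by 0.67. Wee1 also fell in KO cord, by 0.65, and Bub3, the partner of Bub1, rose there by 0.30 ± 0.07.

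Of the 41, 7 were lower in KO than in WT cord at day 1, where 0.667% of all tested genes were, and none was higher, where 0.192% were, with a median of -0.24. The 4 with the smallest p were the kinetochore subunit Spc25 (at least 2.04-fold, -1.70 ± 0.25, limma adjusted p = 0.000134), the passenger complex scaffold Incenp (-0.68 ± 0.13, adjusted p = 0.00722), the centriole kinase Plk4 (-0.66 ± 0.14, adjusted p = 0.012) and Zwilch (-0.90 ± 0.20, adjusted p = 0.0222). None of the 41 passed between genotypes at sham, day 3 or day 7 in limma, where 1, 13 and 0 had an unadjusted p under 0.05. None passed in the genotype difference of the day 1 response, where 10 had an unadjusted p under 0.05. In the change from day 1 to day 3, 6 passed with a larger KO rise (0.709% of all tested genes), among them Spc25 (2.11 ± 0.35), Zwilch (1.22 ± 0.28), Cenpe (1.10 ± 0.24) and Incenp (0.97 ± 0.19).

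**Figure D4:**
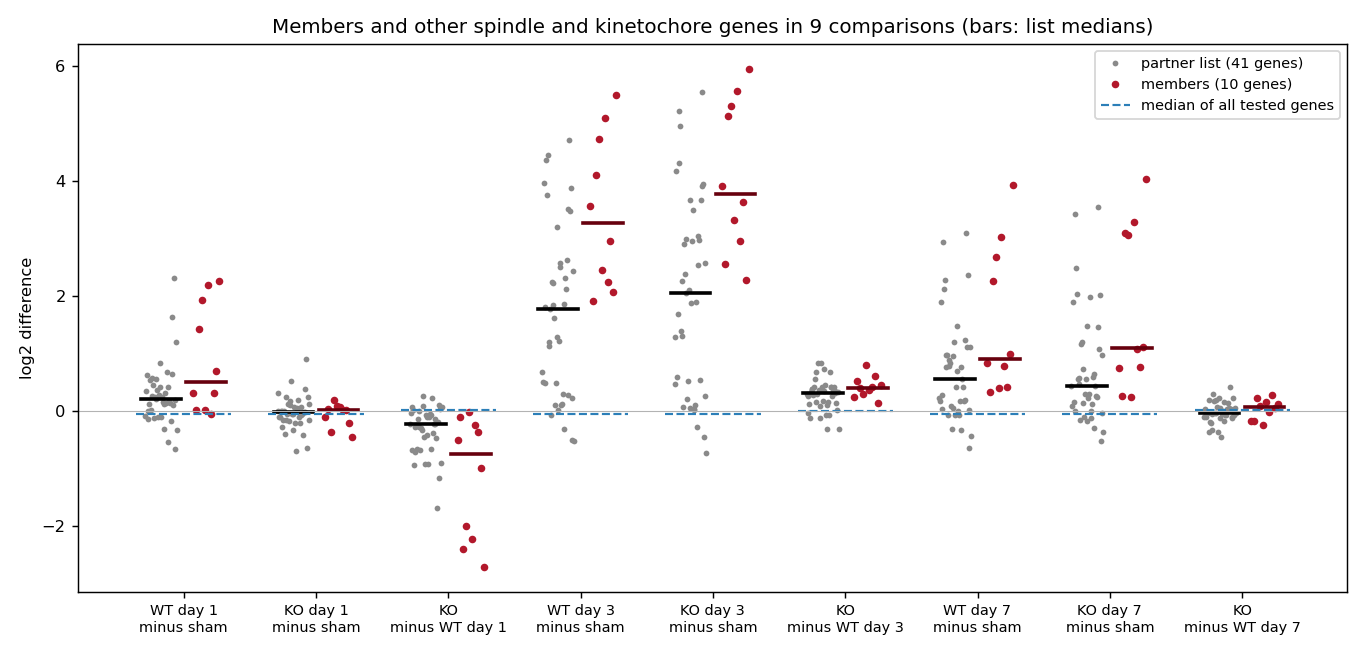
Log2 differences of the 10 genes (red) and of 41 other spindle and kinetochore genes (grey) in 9 comparisons, with list medians as bars and the median of all tested genes as a dashed line. The medians of the 10 stand at 0.51 and 0.01 for WT and KO cord at day 1 against sham, and at 3.26 and 3.77 at day 3, where the filter fixed the direction of 4 of the 10 and 13 of the 41.

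Proliferation genes outside the list were read beside them. Top2a and Cdk1, a topoisomerase and the main mitotic kinase, were at least 6.99-fold and 4.51-fold lower in KO than in WT cord at day 1 (adjusted p = 9.92e-08 for both), and Mki67, a marker of cycling cells, was at least 8.94-fold lower (adjusted p = 1.34e-05). In sham cord the KO minus WT value of Mki67 was already -1.34 ± 0.47, which did not pass (limma adjusted p = 0.92). The genotype difference in the day 1 response passed for Top2a (-2.62 ± 0.39, limma adjusted p = 0.00103) and Cdk1 (-1.86 ± 0.29, adjusted p = 0.00187). That of Mki67 did not pass (-2.19 ± 0.65, adjusted p = 0.319). Against sham, Cdk1 in KO cord at day 1 passed at 0.70 ± 0.21 (adjusted p = 0.0079), with 4 of 4 KO sham and 2 of 4 KO day 1 arrays under log2 4, so the rise was at least 1.08-fold. Pcna, the sliding clamp of DNA replication, rose in both genotypes at day 1, by 1.07 ± 0.09 in WT and 0.89 ± 0.10 in KO cord, and its KO minus WT value of -0.32 ± 0.09 did not pass (adjusted p = 0.122).

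The levels of cell type markers are given beside these results. The mean of 5 endothelial markers in sham cord and at days 1, 3 and 7 was 5.87, 7.28, 8.04 and 6.38 in WT and 6.32, 7.20, 7.81 and 6.20 in KO cord. Like the 10 genes, it was highest at day 3, though Flt1 in KO cord was highest at day 1 (8.27 against 7.93). Its ranges at day 1, 7.10 to 7.47 in WT and 6.87 to 7.38 in KO cord, overlapped. The mean of 5 oligodendrocyte precursor markers was also highest at day 3, at 9.53 in WT and 9.54 in KO cord. It was 9.10 and 9.11 in sham. Of these markers, Olig1, Olig2 and Sox10 were not highest at day 3. The mean of 7 macrophage markers went from 4.13 ± 0.06 (SD, n = 4) in WT sham to 8.57 ± 0.45 (SD, n = 5) at day 1, and stood at 8.05 ± 0.40 (SD, n = 4) in KO cord at day 1. Their ranges at day 1, 8.08 to 9.13 in WT and 7.61 to 8.52 in KO cord, overlapped. At day 3 the macrophage mean was 10.06 in WT and 10.81 in KO cord, and at day 7 it was 10.22 and 10.14. The mean of 4 microglia markers was 7.07 in WT sham and 5.76 in WT day 1 cord, and it was 5.43 in KO cord at day 1, with 8.55 in WT and 8.70 in KO cord at day 7. The mean of 5 fibroblast markers was 9.43 to 10.39 in WT and 7.87 to 9.51 in KO cord at day 1. Its average was 9.93 in WT and 8.91 in KO cord at day 1, and 11.81 and 11.32 at day 7. Skeletal muscle markers varied most: their mean was 8.39 to 11.17 in KO sham and 3.60 to 7.15 in KO day 1 cord, and reached 14.14 in 1 KO day 3 array. The mean of 5 Hox genes that mark the level along the cord was 6.40 to 7.03 in WT sham, below every other group's mean, and 8.40 to 8.81 in KO sham cord. At day 1 the Hox ranges of the genotypes overlapped, at 7.56 to 8.63 in WT and 7.60 to 8.83 in KO. The part of any of these markers in the results above was not tested.

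**Figure D5:**
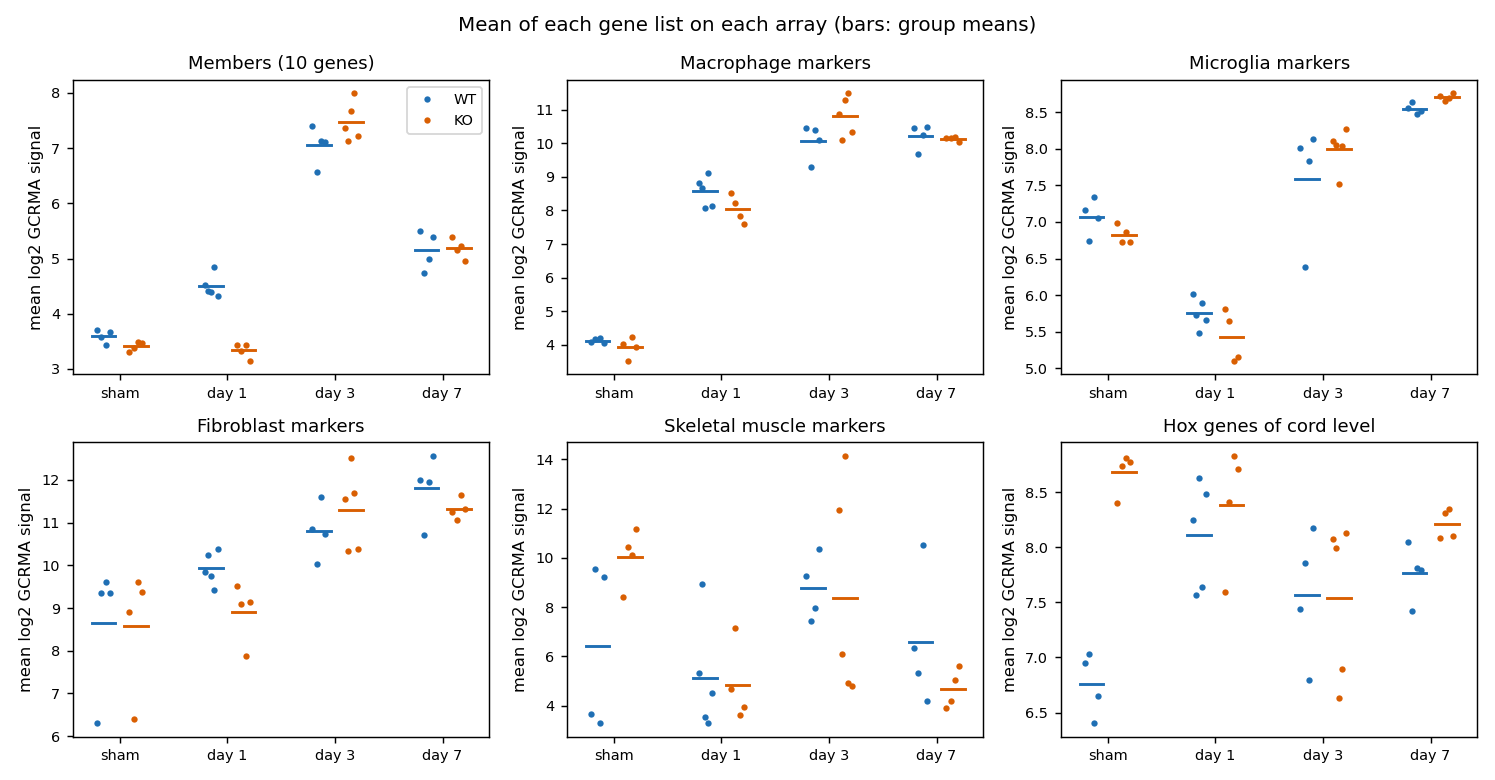
Mean log2 signal per array (points) of the 10 genes and of 5 marker lists, with group means as bars, WT in blue and KO in orange. The mean of the 10 genes is 4.32 to 4.85 on WT day 1 arrays and 3.15 to 3.44 on KO day 1 arrays. At day 1 the macrophage mean averages 8.57 in WT and 8.05 in KO cord. The fibroblast mean averages 9.93 and 8.91, and the Hox mean 8.11 and 8.39. The ranges of these 3 lists overlap between the genotypes at day 1, and their part in the results was not tested.

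The 10 genes had 18 probe sets, and 4 others than those used were above the filter. Over these 4 and 18 comparisons, in the fit over 24574 probe sets, the other probe set and the one used both passed in the same direction in 33 cases, neither passed in 36, and in 3 cases, all of the dimmest Cdca8 probe set, the one used alone passed.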

How the data were processed

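Total RNA of 34 spinal cord samples was hybridised to 1 Affymetrix array each, per the labels. The deposited values are log2 probe set signals, used without further normalisation. They were computed by the authors with GCRMA, a tool named without version in the submitters' processing notes. GCRMA corrects background by probe sequence, so low signals crowd at a few floor values. Of 45101 probe sets, 34945 had 1 gene symbol, 932 several and 9160 none in the annotation used, and 64 were controls. Each gene is its brightest probe set by mean, and 11993 of 18193 genes passed the filter (signal over log2 4 on 4 or more arrays).

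A linear model of 8 group means was fitted in limma 3.58.1 (lmFit, eBayes; R 4.3.3) over all arrays. Adjusted p-values are Benjamini-Hochberg values over all tested genes of each of 18 comparisons, with a threshold of 0.05. Named genes are the 10, up to 4 passing list genes with the smallest p per comparison, the nearest profiles and the proliferation genes. The 10 genes and the lists were chosen with earlier results of these data known. On simulated WT day 1 and sham arrays, 86 of 100 genes changed by log2 1 and 98 of 100 changed by log2 2 were recovered, and 5 unchanged genes were called. No array's values equalled another's. A promoter stretch of 1 gene is not reported here.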

Additional observations from a re-analysis of the deposited data

Results flagged for a closer look

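Within groups of 4 or 5 arrays, 14 of 80 sets of values held an array far from the others, where chance gives about 1 in 20 for values that do not repeat, and in 9 of the 14 every value was under log2 4. Above it, Cdca8 read 6.56 on WT day 1 replicate 4 (others 5.46 to 5.67), Ttk read 6.51 on KO day 3 replicate 4 (others 5.57 to 5.75), Pbk read 8.62 on WT day 3 replicate 2 (others 10.12 to 10.26) and 8.39 on WT day 7 replicate 1 (others 8.13 to 8.16), and Birc5 read 4.05 on WT sham replicate 3 (others 4.97 to 5.12). Under it, Aurka read 2.50 on WT day 1 replicate 2, Aurkb 2.81 on WT day 1 replicate 4, and Plk1 2.17 on WT day 1 replicate 3, 3.63 on WT day 7 replicate 1 and 2.17 on KO day 1 replicate 4. Bub1 read 2.63 on KO sham replicate 4, Bub1b 3.75 on KO sham replicate 3, and Ttk 2.17 on KO sham replicate 4 and 2.23 on KO day 1 replicate 3.

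The test of a genotype difference in a change over time passed in 8 cases. In the day 1 response it gave -1.73 for Cdca8, -2.12 for Bub1 and -2.71 for Pbk (KO change minus WT change, log2). In the change from day 1 to day 3 it gave 2.80 for Birc5, 2.30 for Cdca8, 2.59 for Bub1, 1.13 for Mad2l1 and 3.16 for Pbk.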

How the results depend on the processing

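Over 10 planned settings other than leaving out an array, 1758 of 1782 results of a gene in a comparison kept their side of the threshold. Of the others, 11 lost a call and 13 gained one. No result that passed as reported or in the other setting reversed. The direction of results that passed in neither was not compared. With array weights 1 gene was called in KO cord at day 1 against sham (Pbk, -0.51) in place of 0, and 5 in the genotype difference of the day 1 response in place of 3. With the mean of all probe sets 1 was called there, Pbk, of 9 genes tested. Leaving out 1 array gave 0 to 1 calls in KO cord at day 1 (1 without KO day 1 replicate 3, Birc5 at -0.67), 0 to 1 between genotypes at day 3 (Plk1, without WT day 3 replicate 1), 7 to 8 in WT cord at day 7, and 2 to 5 in the genotype difference of the day 1 response (5 without KO day 3 replicate 4). There the Cdca8 call was lost, at -1.87 to -1.50 over all 34 fits, without WT sham replicate 3 or 4, WT day 1 replicate 3 or 4, WT day 7 replicate 1 or 3, KO sham replicate 1, 3 or 4, KO day 1 replicate 2, 3 or 4, or KO day 7 replicate 2 or 3. In the other comparisons the count of the 10 genes did not change over the 34 fits. Over the planned settings the count of all genes called moved more: 1 to 65 (8 as reported) between genotypes in sham cord, 65 to 310 (103) at day 1, 0 to 6 (4) at day 3, 2 to 233 (4) at day 7, 9 to 105 (17) in the genotype difference of the day 1 response, 0 to 5 (0) at day 3, 0 to 57 (1) at day 7, 25 to 342 (103) in the change from day 1 to day 3, 1029 to 3663 (2765) from day 3 to day 7 in WT, 2126 to 4981 (4303) in KO, and 2516 to 5700 (3915) from day 1 to day 3 in WT cord. The causes were not tested.

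Arrays of the same replicate number did not deviate together in the median (correlation 0.00439 over 113 pairs, against -0.0147 over 392 pairs of different number). Single pairs ran from -0.513 to 0.557 and from -0.455 to 0.549. A median cannot exclude pairing within some groups, and the labels name none. With a replicate block, 5 genes were called between genotypes at day 1, 3 in the day 1 response and 5 in the change from day 1 to day 3, no call of the 10 genes changed, and the counts of all genes moved from 103 to 166, 17 to 23 and 103 to 342. Scaling moved the median of all genes by at most 0.0572 on the log2 scale. Leaving out KO sham replicate 2 and WT day 3 replicate 2 together, chosen after seeing the data, changed no call. Signal over background limits Aurka, Aurkb, Plk1 and Ttk outside day 3: a change there was not detectable, which does not show that it was absent.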
